A study of Malus domestica with 6 samples.

Results

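The genes described here are the 4 candidate regulators that the study named in a region of linkage group 8 mapped for flesh pigmentation pattern in apple. They are MYB44 (MD08G1092000), MYB-3R (MD08G1117700), WRKY11 (MD08G1127200) and HY5 (MD08G1147100). They were chosen by gene ID, from their place in the genome and their annotation, not from the expression values below. They are 4 of the 52311 gene IDs in each deposited table, and all 4 passed the filter on low counts, which left 28610 genes for testing. The IDs follow the GDDH13 v1.1 apple annotation and place all 4 genes on chromosome 8. Start and end positions were not used here.

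Messenger RNA was measured in red-flesh (RF) and white-flesh (WF) mesocarp, the edible cortex, of untreated fruits of the red-flesh cultivar cv. 'R201' at 84 days after full bloom. RF and WF were cut from the same fruits, as 3 libraries of each, lettered A to C, with fruits from different trees. These replicates were called semi-biological by the submitters, so p-values measure the spread between these samples. The study's methods describe RF as outer flesh, so flesh colour and position in the fruit cannot be told apart. A single cultivar at a single stage was sampled, so alleles at the locus were not compared.

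Anthocyanins, the red pigments of apple flesh, are made by a chain of flavonoid enzymes. The genes of those enzymes are switched on by a complex of MYB, bHLH and WD40 proteins. In apple the MYB partner of red flesh is MdMYB10. R2R3-MYB proteins can act as activators or repressors of this pathway, and MYB44, named after a stress-responsive regulator of Arabidopsis, belongs to that class. MYB-3R proteins carry an additional MYB repeat, and in Arabidopsis they are known for control of cell-division genes. WRKY proteins are plant transcription factors best known from defence and stress responses. HY5 is a bZIP factor of light signalling. In Arabidopsis it is broken down in darkness through COP1, and in light it activates genes of flavonoid synthesis.

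Library totals were 25540845 to 25959371 estimated reads in RF and 25536185 to 26050906 in WF, so depth differed little between groups. MdGSTU22 (MD17G1272100), an anthocyanin transport gene, was at 1566 ± 178 TPM in RF and 343 ± 32.2 TPM in WF (SD, n = 3 each), where TPM is a read count scaled by gene length and library total. The study named this gene for its difference between these same libraries, so its values are no independent check of the labels. Markers of other tissues also differed. By edgeR without pairing, at an adjusted p under 0.05 over all genes tested, 6.08% of all tested genes were called higher in RF and 4.68% lower. Of 8 genes of green tissue, 6 were called higher in RF and 0 lower by this test. Their summed level was 1031 to 1092 CPM (counts scaled to a common library size) in RF against 597 to 684 CPM in WF. With the libraries paired by letter (a replicate block), or without RF or WF library B, 1 green-tissue gene was called lower. With a single library left out of the unpaired test, 4 to 7 green-tissue genes were called higher. All 3 epidermal markers were called higher in RF, with sums of 46.1 to 72.2 CPM in RF against 29.9 to 37.4 CPM in WF. Without RF library A or WF library B, 2 of these 3 were called. Of 5 vascular markers 3 were called higher and 2 lower, with sums of 1805 to 2090 CPM in RF against 1232 to 1459 CPM in WF. These sums rested mostly on xylem bark cysteine peptidase 3 gene MD05G1300100, at 45356 to 50644 reads in RF and 30910 to 36746 in WF. No other vascular marker had more than 720 reads in a library. Another gene of the same description (MD08G1023300) was called lower in RF, with a log2 fold change of -0.48. Without RF library A or WF library B, 0 vascular markers were called lower, and without RF library B or C or WF library A, 1 was. No marker was at 0. These markers came mostly from the study's called genes, and their part in the values of the candidates was not tested. In bulk flesh, fewer cells of a type and less RNA per cell cannot be told apart.

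The 4 candidates stood at very different levels. On the TPM scale, which corrects for length, the order was MYB44, MYB-3R, WRKY11 and HY5 in each of the 6 libraries. The ranges of neighbours in this order did not overlap. MYB44 averaged 119 TPM over the 6 libraries and lay above 94.3% to 95.8% of the tested genes. MYB-3R averaged 64.0 TPM and lay above 88.1% to 90.8%. WRKY11 averaged 23.0 TPM and lay above 70.3% to 73.9%. HY5 averaged 4.94 TPM and lay above only 27.3% to 42.4% of the tested genes. The gene models are 960, 1360, 1335 and 1190 bases long in the same order of genes. HY5 rests on 75 to 139 reads per library, and the others on at least 493.

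**Figure D1:**
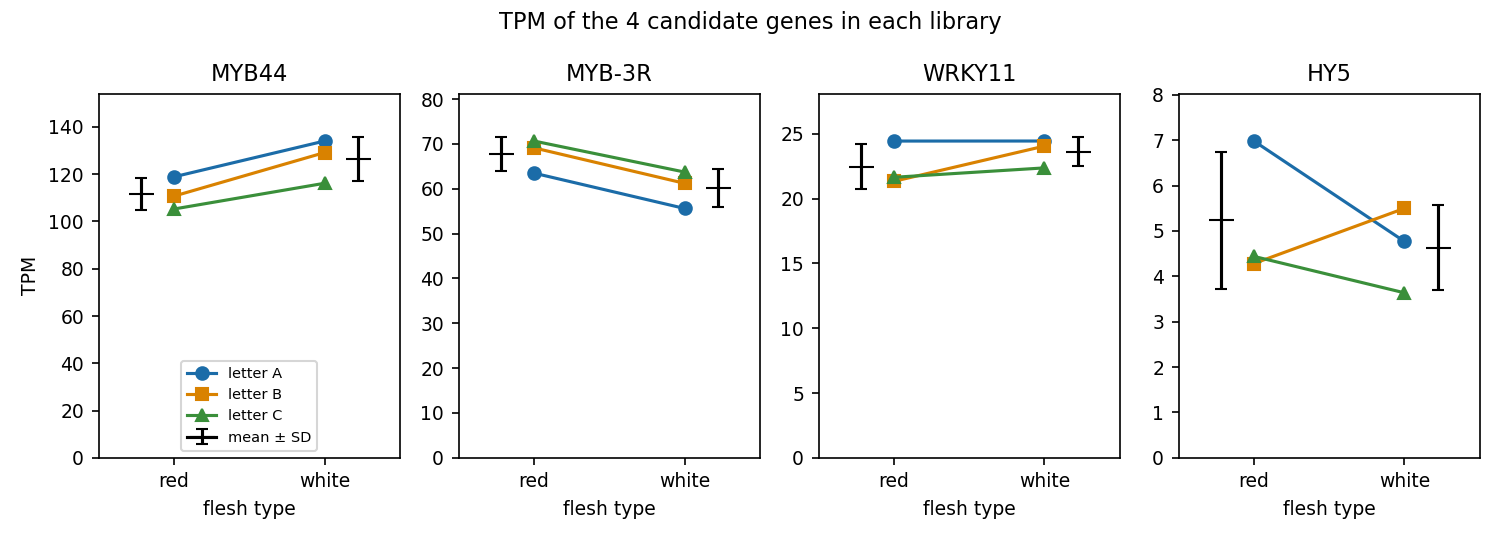
TPM of each candidate in each library, red flesh on the left and white flesh on the right of each panel, with lines joining the libraries of one letter and black bars for the mean ± SD (n = 3). The lines of MYB44 and MYB-3R run nearly parallel and in opposite directions, while those of HY5 cross.

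MYB44 was at 118.9, 110.7 and 105.3 TPM in RF libraries A, B and C, against 134.0, 129.1 and 116.2 TPM in WF libraries A, B and C. RF was below WF within each letter, but the groups overlapped, because RF A lay above WF C. The mean was 112 ± 6.85 TPM in RF and 126 ± 9.24 TPM in WF (SD, n = 3 each). The RF over WF ratios were 0.887 for letter A, 0.857 for B and 0.906 for C. Their mean on the log2 scale was -0.18 ± 0.04 (SD, n = 3 letters).

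MYB-3R went the other way, at 63.5, 69.1 and 70.7 TPM in RF libraries A, B and C, against 55.6, 61.2 and 63.7 TPM in WF libraries A, B and C. RF was above WF within each letter, and the groups again overlapped, with RF A just below WF C. The mean was 67.8 ± 3.77 TPM in RF and 60.2 ± 4.16 TPM in WF (SD, n = 3 each). The RF over WF ratios were 1.14, 1.13 and 1.11 for A, B and C, a mean log2 ratio of 0.17 ± 0.02 (SD, n = 3 letters).

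The letters differed from each other by about as much as RF from WF. The letter means of MYB44 spanned 0.19 on the log2 scale and those of MYB-3R 0.18, beside mean RF minus WF differences of -0.18 and 0.17. Letter A was the highest for MYB44 and the lowest for MYB-3R in both flesh types, and C was at the opposite end. The 6 libraries stood in exactly reverse order for both genes, from WF A at one end to RF C at the other.

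The ratio of MYB44 to MYB-3R within a library does not depend on library scaling. On the TPM scale it was 1.87, 1.60 and 1.49 in RF A, B and C, against 2.41, 2.11 and 1.82 in WF A, B and C. Within each letter RF was below WF, by factors of 0.777, 0.759 and 0.818. The groups overlapped here too, since RF A exceeded WF C. With 3 pairs an exact sign-flip test cannot give a p under 0.25, so none was used.

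WRKY11 was at 24.4, 21.3 and 21.6 TPM in RF libraries A, B and C, against 24.4, 24.1 and 22.4 TPM in WF libraries A, B and C. The groups overlapped. The RF over WF ratios were 1.00, 0.887 and 0.968 for A, B and C, so only letter B moved by as much as the MYB genes. The ratio of letter A changed side with the scaling, at 0.99987 on the TPM scale and 1.02 on the CPM scale. The mean log2 ratio was -0.07 ± 0.09 (SD, n = 3 letters), so its spread exceeded its size.

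HY5 was at 6.98, 4.28 and 4.44 TPM in RF libraries A, B and C, against 4.77, 5.50 and 3.64 TPM in WF libraries A, B and C. The highest RF library was A and the highest WF library was B. The RF over WF ratios were 1.46, 0.779 and 1.22 for A, B and C, so the letters did not share a direction. The counts behind them were 139, 86 and 90 reads in RF, against 97, 112 and 75 reads in WF. An exact binomial interval (95%, Clopper-Pearson, counting error only) ran from 1.12 to 1.92 for letter A and from 0.581 to 1.04 for letter B. These intervals did not overlap, so letters A and B differed in HY5 by more than counting error. The mean was 5.24 ± 1.52 TPM in RF and 4.63 ± 0.94 TPM in WF (SD, n = 3 each), the widest relative spread of the 4 genes.

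**Figure D2:**
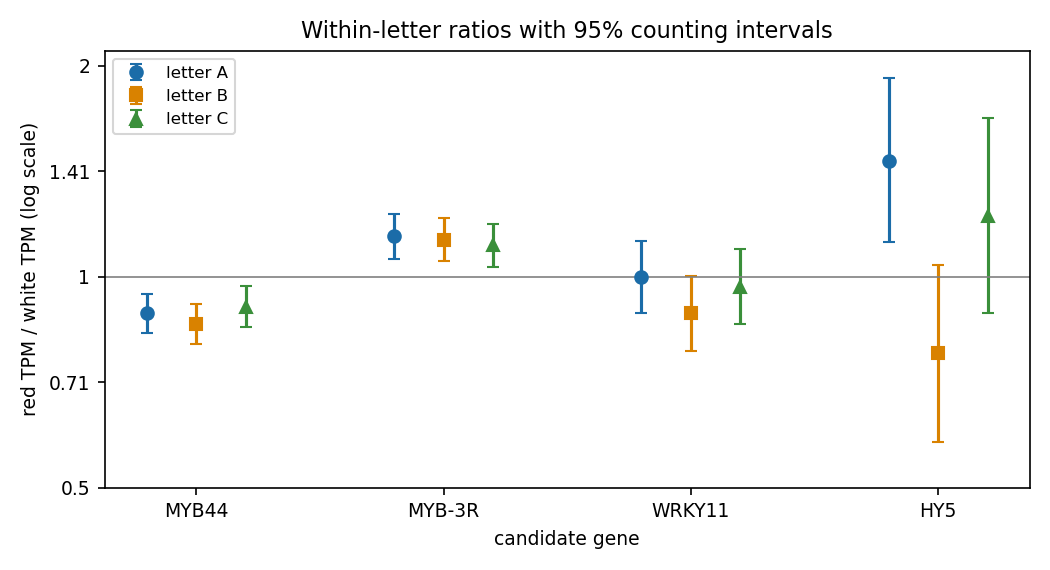
Red over white TPM ratio of each candidate within letters A, B and C, on a log scale, with bars for the exact 95% interval from counting error alone. All bars of MYB44 lie below 1 and all bars of MYB-3R above it, while the HY5 ratios lie on both sides of 1, from 0.779 to 1.46.

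For MYB44 the counting intervals were 0.832 to 0.945, 0.803 to 0.915 and 0.847 to 0.970 for letters A, B and C. For MYB-3R they were 1.06 to 1.23, 1.05 to 1.21 and 1.03 to 1.19. Each of these excluded 1, so the reads were deep enough to separate the RF and WF libraries of a letter. A shared direction in all 3 letters was common in these data. TPM was lower in RF in all 3 letters in 24.6% of the 28610 tested genes and higher in RF in 25.4%. Of the candidates, MYB44, MYB-3R and, on the TPM scale, WRKY11 had it. In 29.0% of the tested genes the groups did not overlap at all, which held for 0 of the 4 candidates.

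The comparison of RF with WF over all genes asked whether a candidate differed by more than the spread between libraries. By edgeR's quasi-likelihood test without pairing, 0 of the 4 candidates were called at an adjusted p under 0.05, where 10.8% of all tested genes were. At an unadjusted p under 0.05 there were 2, MYB44 and MYB-3R, as there were by DESeq2, while 24.6% of all tested genes passed this level by edgeR and 14.6% by DESeq2. DESeq2 called 0 of the 4 after adjustment, and 8.75% of the genes it gave an adjusted p.

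MYB44 had a log2 fold change of -0.18 (95% interval -0.34 to -0.02, edgeR adjusted p = 0.145). This is a level in RF of 0.882 times that in WF, with an interval of 0.791 to 0.984. MYB-3R had a log2 fold change of 0.17 (95% interval 0.02 to 0.32, edgeR adjusted p = 0.152), or 1.13 times the WF level (1.01 to 1.25). WRKY11 had a log2 fold change of -0.07 (95% interval -0.25 to 0.11, edgeR adjusted p = 0.649), or 0.952 times (0.843 to 1.08). HY5 had a log2 fold change of 0.18 (95% interval -0.30 to 0.66, edgeR adjusted p = 0.677), or 1.13 times (0.812 to 1.57). The point estimate of HY5 was thus as large as that of the MYB genes, with a wider interval. A difference beyond 1.57-fold in either direction lay outside the interval of every candidate in this fit. By the size of the change, 40.5% of the tested genes had a larger absolute log2 fold change than MYB44, 42.5% than MYB-3R, 71.8% than WRKY11 and 41.2% than HY5.

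With the replicate block, edgeR called 2 of the 4 candidates, where it called 18.8% of all tested genes. MYB44 was called lower in RF (log2 fold change -0.18, 95% interval -0.29 to -0.07, edgeR adjusted p = 0.0212), and MYB-3R was called higher (0.17, 95% interval 0.06 to 0.28, edgeR adjusted p = 0.0311). The background in those directions was 8.39% of tested genes lower and 10.4% higher. The fold changes did not move with the pairing, and the intervals narrowed. WRKY11 and HY5 were not called in the paired fit, with edgeR adjusted p-values of 0.527 and 0.561. DESeq2 with the same pairing called 0 of the 4, with adjusted p-values of 0.146 for MYB44 and 0.228 for MYB-3R, and 8.21% of the genes it gave an adjusted p.

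Both paired calls were lost without letter A or letter B. Without letter A the paired edgeR adjusted p was 0.0694 for MYB44 and 0.197 for MYB-3R, and without letter B it was 0.151 and 0.143. Without letter C both calls stood, at 0.0156 and 0.0224. The paired fits called 11.1%, 13.1% and 20.0% of all tested genes without A, B and C. With a single library left out of the unpaired fit, adjusted p-values ran from 0.0603 to 0.354 for MYB44 and from 0.0888 to 0.365 for MYB-3R, and no candidate was called. MYB44 stayed lower and MYB-3R higher in RF in all 9 fits with a library or a letter left out. HY5 changed sign without RF library A, to a log2 fold change of -0.10, and without letter A in the paired fit, to -0.067. Without letter B the paired value of HY5 was 0.43, with an edgeR adjusted p of 0.135.

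**Figure D3:**
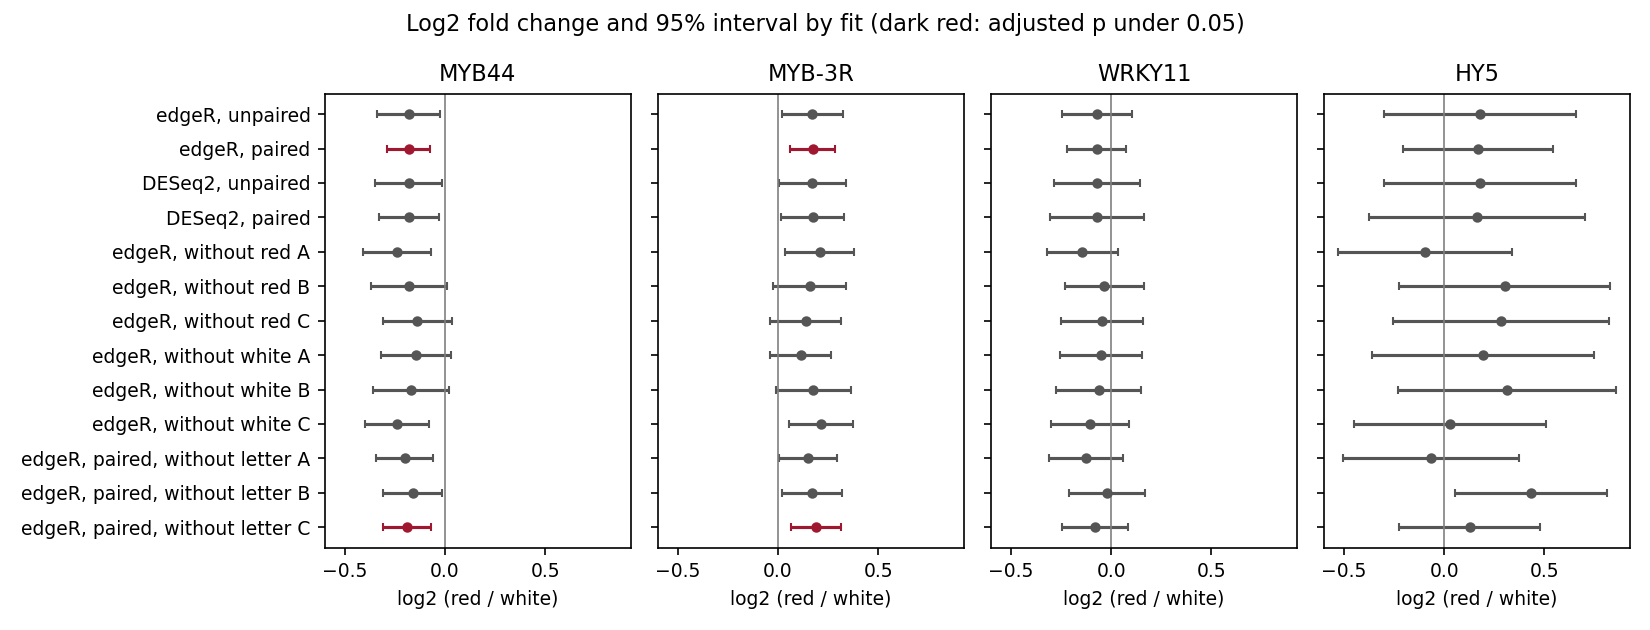
Log2 fold change of red over white flesh for each candidate with its 95% interval, by fit, from edgeR and DESeq2 with all libraries down to fits with a library or a letter left out. Dark red marks an adjusted p under 0.05, reached by MYB44 and MYB-3R in the paired edgeR fit and in that fit without letter C.

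The candidates were then set beside named genes of the pigment pathway. The list used holds 14 other pathway genes from the study's text and not every one it names, as MdMYB9 and MdbHLH3 were not analysed here. Of these 14, 11 were tested, and 6 were called higher and 2 lower in RF, where 6.08% and 4.68% of all tested genes were. Their median log2 fold change was 0.39, against a median of -0.0045 over all tested genes. Several were picked by the study for their change in these libraries, so the direction of these counts was partly fixed by that choice and is not independent evidence. Without WF library B, 5 were called higher and 0 lower. Without RF library A, RF library B or WF library A, 5 were called higher and 1 lower.

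Among the enzymes, MdCHS (MD04G1003300), the chalcone synthase at the entry to flavonoids, was 1.80 higher in RF by log2, with an SE of 0.09 (edgeR adjusted p = 5.44e-06). MdPAL1 (MD04G1096200), a phenylalanine ammonia lyase, had 1.58 (SE 0.10), and MdDFR (MD15G1024100), a dihydroflavonol reductase, 1.11 (SE 0.08). Among the regulators, the presumed MdMYB10 (MD09G1278600) was at 31.5 ± 3.49 TPM in RF and 21.6 ± 2.65 TPM in WF (SD, n = 3 each), and was called higher in RF (0.55 by log2, edgeR adjusted p = 0.00726). At these levels MYB44 and MYB-3R had more transcript than MdMYB10 in both flesh types, and HY5 had less. MdTTG1 (MD01G1228700), the WD40 partner of the complex, was called lower in RF (log2 fold change -0.27, SE 0.07), and so was MdMYB3 (MD15G1411200; -1.89, SE 0.42), at 0.25 ± 0.15 TPM in RF and 0.92 ± 0.19 TPM in WF (SD, n = 3 each). Reads of MdMYB3 were few, at 7, 9 and 2 in RF A, B and C against 19, 28 and 22 in WF. The call on MdTTG1 did not hold without RF library A (edgeR adjusted p = 0.0761), RF library B (0.0748), WF library A (0.0523) or WF library B (0.0962). The study, which also applied a fold-change threshold, reported MdTTG1 as not differentially expressed, at a fold change of similar size. The call on MdMYB3 was lost without WF library B, at 0.0694. With the replicate block, which called 18.8% of all tested genes, edgeR adjusted p-values were 0.00585 for MdTTG1 and 0.00377 for MdMYB3.

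**Figure D4:**
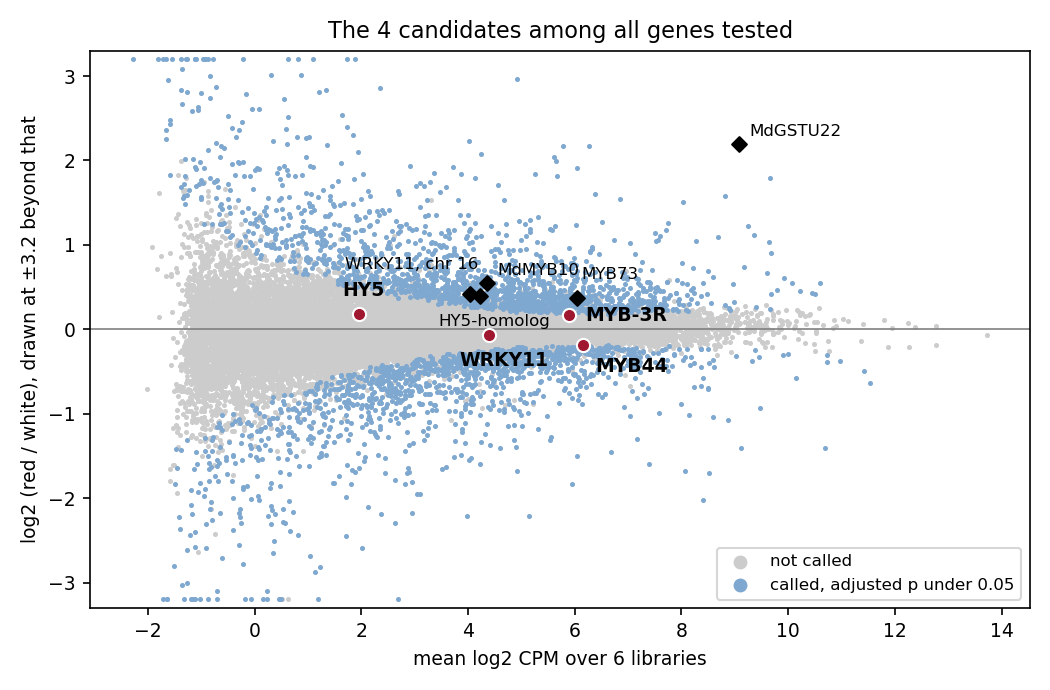
Log2 fold change of red over white flesh against mean log2 CPM for all 28610 genes tested by edgeR without pairing, in blue where called and grey where not. The 4 candidates (dark red points) lie within the grey band near 0, below MdGSTU22 and the other labelled genes (black diamonds).

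For MYB44, WRKY11 and HY5, a relative elsewhere in the genome was called higher in RF. All of these relatives were taken from the study's called genes, so their direction was fixed by the choice. The gene described as myb domain protein 73 (MD15G1076600), in Arabidopsis a close relative of MYB44, was at 138.7, 118.5 and 123.8 TPM in RF A, B and C, against 104.5, 98.1 and 92.3 TPM in WF. The log2 difference was 0.37 with an SE of 0.07 (edgeR adjusted p = 0.00972), a call that stood with any library left out. The ratio of MYB73 to MYB44 TPM was 1.17, 1.07 and 1.18 in RF A, B and C, against 0.779, 0.759 and 0.794 in WF. MYB73 was thus the more abundant of the pair in every RF library and the less abundant in every WF library.

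WRKY DNA-binding protein 11 on chromosome 16 (MD16G1244300) was at 21.7, 18.7 and 20.4 TPM in RF A, B and C, against 16.5, 14.4 and 14.6 TPM in WF, a log2 difference of 0.42 with an SE of 0.09 (edgeR adjusted p = 0.0118). Its ratio to the candidate WRKY11 was 0.889, 0.879 and 0.942 in RF and 0.674, 0.601 and 0.654 in WF, so the groups did not overlap. Since this relative was picked from called genes, that separation follows in part from the choice and is not independent evidence. The unpaired call was lost without RF library A or WF library B, at edgeR adjusted p-values of 0.0604 and 0.0634. With the replicate block, which called 18.8% of all tested genes, the edgeR adjusted p was 0.000915.

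The gene described as HY5-homolog (MD16G1132200, chromosome 16) was at 41.9, 36.0 and 32.8 TPM in RF A, B and C, against 30.1, 28.1 and 26.1 TPM in WF, a log2 difference of 0.39 with an SE of 0.10 (edgeR adjusted p = 0.0315). It had 5.12 to 8.42 times the TPM of HY5 over the 6 libraries. That ratio was 6.00, 8.42 and 7.38 in RF and 6.32, 5.12 and 7.18 in WF, with overlap. The unpaired call was lost without RF library A or B or WF library B or C, at edgeR adjusted p-values of 0.124, 0.0704, 0.102 and 0.0775. With the replicate block, which called 18.8% of all tested genes, the edgeR adjusted p of this gene was 0.00178.

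The wider families came from the study's called genes too. Their counts and medians were thus largely set by that choice, while 6.08% of all tested genes were called higher in RF and 4.68% lower. All 9 described WRKY genes were called higher in RF, with a median log2 fold change of 1.05. The candidate WRKY11, which was not chosen in this way, was at -0.07. Without RF library A or C or WF library B, 6 of the 9 were called. Of 6 described MYB genes, 3 were called higher and 2 lower, with a median of 0.06. Without WF library B these counts were 3 and 0. Without WF library A they were 3 and 3, and without any single RF library 3 and 1. Of 11 genes described as light receptors, their partners, B-box or HY5-related factors, 7 were called higher and 3 lower, with a median of 0.32. Among them phytochrome E (MD05G1291600), a red-light receptor, was 1.23 higher in RF by log2, with an SE of 0.20 (edgeR adjusted p = 0.00269), and a B-box gene (MD17G1243400) 1.93 higher (SE 0.23). Both were named after their values were seen. Without RF library A or WF library B, 5 of the 11 were called higher and 1 lower. Without RF library B these counts were 5 and 3, and without RF or WF library C they were 6 and 1.

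The position of the candidates was examined through the 5 IDs on each side of each gene, chosen by place only. Of these 40 neighbours, 32 were tested, and 3 were called higher and 3 lower in RF, with a median log2 fold change of -0.02. Over all tested genes 6.08% were called higher and 4.68% lower. With single libraries left out, 1 or 2 were called higher and 1 to 5 lower, with 5 lower without WF library C. The replicate block called 4 higher and 5 lower, where it called 10.4% and 8.39% of all tested genes in these directions. MD08G1092600, beside MYB44, and MD08G1127900, beside WRKY11, neither with a description held here, were among the 5 called lower with the replicate block. Their paired log2 fold changes were -2.57 and -1.30 (edgeR adjusted p = 0.00035 and 0.0141). The unpaired test did not call these genes with all libraries (0.0698 and 0.0645). It called both lower once WF library C was left out (0.0245 and 0.0460), and the first also without WF library B (0.0403). Reads were few, at 9, 4 and 2 in RF A, B and C against 74, 10 and 13 in WF for MD08G1092600. For MD08G1127900 they were 12, 6 and 6 in RF against 29, 17 and 15 in WF.

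Beside MYB44, F-box gene MD08G1091700, of a family that marks proteins for breakdown, was at 493 ± 13.1 TPM in RF and 424 ± 17.7 TPM in WF (log2 fold change 0.21, edgeR adjusted p = 0.0306). Its call stood without WF library A but not without any other, at 0.0672 to 0.138. MD08G1092400 and MD08G1092900, with no description held here, were called lower, with log2 fold changes of -0.62 and -0.30. The first was not called without RF library A or C or WF library B (0.131, 0.121 and 0.131). The second was called only without WF library C, and was at 0.0847 to 0.168 without the others. With the replicate block, edgeR adjusted p-values were 1.87e-05 for MD08G1092400 and 0.0146 for MD08G1092900. Beside MYB-3R, a gene described as a sulfite exporter family protein (MD08G1118000) was at 6.63 ± 0.67 TPM in RF and 8.97 ± 0.10 TPM in WF (log2 fold change -0.43, edgeR adjusted p = 0.0160). Its call stood with any library left out. MD08G1118300 was called higher (0.25, edgeR adjusted p = 0.0485), and lost that call whichever library was left out (0.0691 to 0.201).

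Among the neighbours called by the unpaired test, the largest change lay 3 IDs before WRKY11. FAD-dependent oxidoreductase gene MD08G1126500 was at 40.9, 29.4 and 43.6 TPM in RF A, B and C, against 19.0, 13.7 and 16.3 TPM in WF. It was 1.22 higher in RF by log2, with an SE of 0.15 (edgeR adjusted p = 0.00060), and the call stood with any library left out. Around HY5, 5 of 10 neighbours were tested and 0 were called by the unpaired edgeR test. The ID after HY5, cellulose synthase 1 (MD08G1147200), was singled out after its values were seen. It was at 199.6 ± 15.2 TPM in RF and 170.1 ± 13.4 TPM in WF (SD, n = 3 each), with edgeR adjusted p-values of 0.102 unpaired and 0.00529 with the replicate block.

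**Figure D5:**
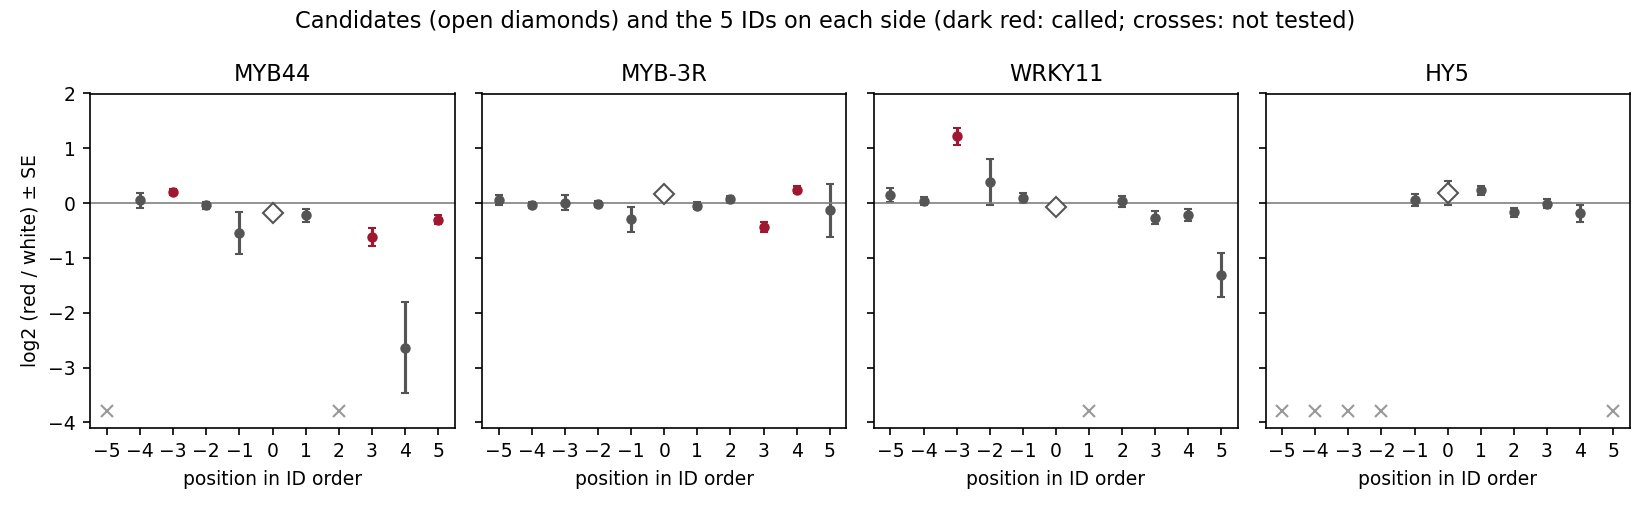
Log2 fold change of red over white flesh ± SE for each candidate (open diamond) and the 5 gene IDs on either side in the order of chromosome 8, by edgeR without pairing, with crosses for IDs not tested. Dark red marks called genes, of which the one 3 IDs before WRKY11, at 1.22, moved most among those called.

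The patterns most like each candidate were sought among 1784 described genes with a mean of at least 100 counts, by Pearson's r of log2 CPM over the 6 libraries, which are 3 pairs from shared fruits. This r is a description. Only 2135 gene IDs had a description, taken from the study's text and gene lists, which include genes it called in these libraries. The pool was thus not a neutral sample, and the genes named below depend in part on that choice. For MYB44 the likest were UDP-D-glucuronate 4-epimerase 6 (MD05G1230600, r = 0.984), an enzyme of cell wall sugars, and a pectin lyase-like gene (MD06G1105300, r = 0.982). For MYB-3R they were plastid transcription factor 1 (MD09G1068200, r = 0.977) and ribosomal protein L4 (MD11G1080100, r = 0.972). For WRKY11 they were MD03G1106700, of unknown function (r = 0.933), and the disease resistance-like gene MD03G1054400 (r = 0.883). For HY5 they were an exoribonuclease family gene (MD03G1172100, r = 0.921) and again MD03G1054400 (r = 0.894). Among all 19499 genes at this depth, described or not, 6 to 118 had a higher r than these, so none was particular to its candidate. The unpaired edgeR test itself called the pectin lyase-like gene, plastid transcription factor 1 and ribosomal protein L4 (adjusted p = 0.0329, 0.0426 and 0.0159). It did not call the epimerase (0.0962) or the genes named for WRKY11 and HY5.

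The deposited counts of MYB-3R were fractional in all 6 libraries and those of MYB44 in 5, those of WRKY11 in 2 and those of HY5 in 0 (whole within 0.001). Such estimates can be fractional where reads match several genes and are divided between them. How far this touches the levels of MYB44 and MYB-3R was not tested. None of the 4 IDs matched the RefSeq gene table of assembly GDT2T_hap1. By symbol, that table held HY5 once, on chromosome 8, and WRKY11 once, on chromosome 2, so the entry of that name lies on another chromosome than the candidate.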

How the data were processed

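The authors deposited, for each library, estimated counts of reads, TPM values, lengths and effective lengths of 52311 gene IDs, laid out as salmon writes them. Alignment and quantification used AnaDiff; version and settings: not given in the sources used here. Libraries were poly(A)-enriched, strand-marked and read in pairs. The deposited estimated counts were rounded and tested with edgeR (4.0.16, in R 4.3.3; quasi-likelihood, TMM, its expression filter, flesh type as single covariate). Tests were two-sided, with Benjamini-Hochberg adjustment over 28610 genes and calls under 0.05. The SE is the absolute log2 fold change over the root of the test statistic. The deposited TPM values gave levels and within-letter ratios, without a pseudocount. DESeq2 (1.42.0), used by the study, was an alternative. The test scripts were tested on simulated data.

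The labels state that RF and WF came from the same fruits. Across genes, which are not replicates, deviations from group means correlated at 0.27, 0.23 and 0.23 for same-letter libraries and at -0.22 to 0.00 for others, so letters were taken as pairs.

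The candidates and lists were chosen with earlier results of these data known. Named are the candidates, 7 pathway genes, relatives of the candidates, called neighbours within 5 IDs and the 2 likest described genes per candidate, with exceptions marked. Names and descriptions came from the study's text and gene lists, held in part. MdMYB10 was assigned from general knowledge. Alternatives were DESeq2 with and without pairing, its size factors in edgeR, no filter, a filter at a mean of 50 counts, offsets from effective lengths, robust dispersion, the replicate block and each library left out. Leaving a letter out of the paired fit was added after seeing the data.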

Additional observations from a re-analysis of the deposited data

How the results depend on the processing

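With the replicate block (pairing), edgeR called 2981 genes higher and 2401 lower in RF, against 1740 and 1340 without it, and 2 candidates in place of 0, MYB44 (log2 fold change -0.18) and MYB-3R (0.17). Without single libraries 939 to 1624 genes were called higher and 666 to 1523 lower. Without letter C the paired fit gave -0.19 for MYB44 and 0.19 for MYB-3R, both called. With a library or a letter left out, paired or not, 0 to 2 candidates were called, and log2 fold changes ran from -0.24 to -0.14 for MYB44, from 0.11 to 0.22 for MYB-3R, from -0.14 to -0.02 for WRKY11 and from -0.10 to 0.43 for HY5. HY5 was at 0.31 without WF library B, at -0.10 without RF library A and at -0.067 without letter A in the paired fit, and the cause of the change of sign was not tested. DESeq2 with or without pairing, its size factors, the filters, effective-length offsets and robust dispersion called 0 candidates and kept each direction. The mean within-letter log2 TPM ratio kept its direction under CPM and a pseudocount of 1 TPM, while that of HY5 was -0.04 without letter A. HY5 rests on the fewest reads of the candidates, 75 to 139 per library, and its ratios in letters A and B also differed by more than counting error.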
